A study of Mus musculus with 8 samples.

Results

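Acute phase proteins are plasma proteins whose synthesis, mostly in hepatocytes, changes within hours of an inflammatory signal. Interleukin 6 acting through STAT3, and interleukin 1 and TNF acting through NF-kappaB and C/EBP factors, are the textbook inducers, and the proteins coat or carry lipids, iron, haemoglobin and bacterial products. Some of them are also made outside the liver, Saa3 by macrophages and adipocytes and Lcn2 by neutrophils and epithelia.

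Here 10 genes for such proteins were followed in orthotopic liver tumors of mice given imiquimod. They were the serum amyloid A genes Saa1, Saa2, Saa3 and Saa4, Lcn2 (lipocalin 2), Lbp (lipopolysaccharide-binding protein), Hp (haptoglobin), Orm1 and Orm2 (orosomucoids) and Cp (ceruloplasmin). They were found by their symbols and Ensembl identifiers among the 55536 genes counted, each in 1 row, and all 10 passed the filter on low counts that left 15998 genes for testing.

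All animals were male C3H mice, aged 6 to 8 weeks at implantation by the labels (the study's methods give a younger age, and C3H/HeNCrNarl as the strain), whose livers had received HCA-1 cells, a murine hepatocellular carcinoma (HCC) line, under the capsule. On day 17 after implantation the 4 Control mice received saline intravenously, and the 4 IMQNP mice a single intravenous dose of 4 mg kg-1 PFSUV-IMQ. PFSUV-IMQ is imiquimod (IMQ), which activates toll-like receptor 7, carried in small vesicles of cholesterol and a surfactant without phospholipid (PFSUV) that were made to reach the liver. Tumors were taken 3 h later for RNA sequencing and are named here by treatment and by the number in their label (saline tumors 1, 3, 4 and 5, PFSUV-IMQ tumors 1 to 4).

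Whole tumors were sequenced, so RNA of the surrounding liver can be part of each library. The 12 hepatocyte markers together took 5435 to 41431 CPM in saline tumors (TMM-normalized counts, relative to library size) and 7624 to 42286 CPM in PFSUV-IMQ tumors, and 0 of the 12 were called by edgeR's quasi-likelihood test, edgeR's exact test or DESeq2's Wald test, with 0 at an unadjusted p under 0.05. Among 6 oncofetal markers, Afp (alpha-fetoprotein) lay between 2.096 and 6.08 CPM, and Igf2 had at most 1 count in any tumor. Gpc3 and H19 lay between 0.629 and 1.99 CPM and between 0.772 and 4.10 CPM. Epcam lay between 5.43 and 11.4 CPM, and Krt19 was the highest, between 43.4 and 70.8 CPM. Totals ran from 16883911 to 27687756 counts in saline tumors and from 17008151 to 18527613 in PFSUV-IMQ tumors. PFSUV-IMQ tumor 2 stood apart: of the 362 genes called higher over the whole table it was the highest tumor of its group in 320. In such bulk samples, fewer cells of a type and less RNA per cell cannot be told apart.

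The serum amyloid A genes lie next to each other on chromosome 7. Saa1 and Saa2 had nearly the same profile over the tumors, and Saa3 and Saa4 did not share it. The Saa1 and Saa2 transcripts also share sequence, so reads can be split between them. Whether upstream sequence bears on the profiles was not tested. The sequences upstream of the RefSeq starts of these genes (GRCm38.p6) are shown. Each runs 5′ to 3′ and stops where an annotated exon begins, and capitals mark the letters TTGCNNAA of a C/EBP site or GAAANNGAAA of an interferon-stimulated response element (ISRE), on either strand.
Saa1, chr7:46742981-46743230, minus strand: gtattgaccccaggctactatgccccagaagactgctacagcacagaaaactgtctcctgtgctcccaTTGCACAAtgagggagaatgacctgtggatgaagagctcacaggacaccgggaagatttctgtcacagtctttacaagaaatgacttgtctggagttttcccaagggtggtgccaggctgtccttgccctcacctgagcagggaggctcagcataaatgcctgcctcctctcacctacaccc
Saa2, chr7:46751583-46751789, plus strand: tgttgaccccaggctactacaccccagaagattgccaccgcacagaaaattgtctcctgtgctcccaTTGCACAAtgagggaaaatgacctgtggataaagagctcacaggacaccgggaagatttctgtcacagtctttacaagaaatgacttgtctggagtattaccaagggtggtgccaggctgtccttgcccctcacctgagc
Saa3, chr7:46715701-46715926, minus strand: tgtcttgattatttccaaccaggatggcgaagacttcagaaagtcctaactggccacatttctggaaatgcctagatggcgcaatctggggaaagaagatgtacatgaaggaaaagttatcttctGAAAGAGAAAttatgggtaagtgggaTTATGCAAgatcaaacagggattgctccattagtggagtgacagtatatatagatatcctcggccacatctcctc
Saa4, chr7:46732604-46732853, minus strand: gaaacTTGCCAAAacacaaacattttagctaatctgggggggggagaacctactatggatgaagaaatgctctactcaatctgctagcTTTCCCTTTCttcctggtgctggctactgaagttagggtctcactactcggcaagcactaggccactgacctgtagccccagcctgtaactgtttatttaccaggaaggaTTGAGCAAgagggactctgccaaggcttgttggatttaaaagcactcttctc

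In the full 250 bases before the start, Saa1 and Saa2 were identical at 94.8% of aligned positions, against 52.5% for Saa1 and Saa3 and 47.1% for Saa1 and Saa4. Both held the C/EBP match TTGCACAA, ending 175 bases before the start in Saa1 and 176 in Saa2. Saa3 held 1 C/EBP and 1 ISRE match, and Saa4 held 2 C/EBP matches and 1 ISRE match. Of 32851 RefSeq windows of this length, 9.56% held the C/EBP letters and 2.98% the ISRE letters, and no match overlapped another in these 4 windows. Neither GGGNNTTTCC for NF-kappaB (1.41% of windows) nor TTCNNNGAA for STAT (7.02%) was found in the windows of the 7 members with an entry (Saa1 to Saa4, Lcn2, Orm2 and Cp). A match in letters describes the sequence only, and the letters were chosen after the sequences had been seen. Entries for Hp, Orm1 and Lbp were not used here.

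Saa1 and Saa2 encode the acute phase amyloid A apolipoproteins of high-density lipoprotein. The level of Saa1 was 485, 35.6, 86.6 and 26.7 CPM in saline tumors 1, 3, 4 and 5, and 214, 2723, 889 and 647 CPM in PFSUV-IMQ tumors 1 to 4. All PFSUV-IMQ tumors but the first exceeded every saline tumor, and saline tumor 1 lay above PFSUV-IMQ tumor 1. Saa2 ran in parallel, at 448, 17.1, 48.0 and 27.9 CPM in the saline tumors and 215, 2593, 902 and 643 CPM in the PFSUV-IMQ tumors.

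The fitted fold change of Saa1 was 7.06 (log2 2.82 ± 1.05, SE, n = 4 per group) with an unadjusted p of 0.0237 and an adjusted p of 0.274 in edgeR's quasi-likelihood test. For Saa2 it was 8.05 (log2 3.01 ± 1.13) with an adjusted p of 0.282. Neither passed the threshold, which asks for an adjusted p under 0.05 over the 15998 genes and a log2 change beyond 1. With saline tumor 1 left out, Saa2 did pass, at a log2 change of 5.13 and an adjusted p of 0.0382 in the same test. Without PFSUV-IMQ tumor 2 the changes were smaller, at 3.61-fold for Saa1 (log2 1.85, adjusted p of 0.432) and 4.25-fold for Saa2 (log2 2.09, adjusted p of 0.424).

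The Saa1 and Saa2 transcripts share sequence: 32.1% of the 50-base words of the longest Saa1 transcript also occur in another gene, nearly all in Saa2, so reads can be split between them in ways that depend on the counting. Of the reads given to either gene, Saa1 took 49.6 to 51.2% in the PFSUV-IMQ tumors. In saline tumors the share was 52.0% in tumor 1, 67.6% (95% Wilson interval 65.1 to 69.9) in tumor 3, 64.3% (62.7 to 66.0) in tumor 4 and 48.9% (45.8 to 52.0) in tumor 5, where the intervals cover counting error only. The 2 saline tumors with a higher Saa1 share were tumors 3 and 4, which had 1014 and 2016 Saa1 counts. With both genes summed, the log2 change was 2.91 and the adjusted p 0.274.

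Saa3, the family member that macrophages also make, had the widest range of the 10 genes, with the highest tumor 500.2-fold above the lowest. Its level was 3.32, 2.49, 2.36 and 21.7 CPM in saline tumors 1, 3, 4 and 5, and 21.3, 1182, 230.4 and 181 CPM in PFSUV-IMQ tumors 1 to 4. The groups touched only where saline tumor 5 and PFSUV-IMQ tumor 1 lay side by side, and the other PFSUV-IMQ tumors were far above every saline tumor. The fitted change was 54.4-fold (log2 5.76 ± 1.31), with an unadjusted p of 0.00151 and an adjusted p of 0.0544 in the quasi-likelihood test.

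The call of Saa3 depended on the setting. The adjusted p was 8.35e-05 in DESeq2's Wald test and 0.000242 in edgeR's exact test, with log2 changes of 5.77 and 5.75. Leaving out saline tumor 5 gave a log2 change of 7.21 and leaving out PFSUV-IMQ tumor 1 gave 6.16, both past the threshold (adjusted p of 0.0339 and 0.0261, quasi-likelihood test). The other 6 fits that left out 1 tumor did not call it: the adjusted p was 0.161, 0.165 and 0.135 without saline tumors 1, 3 and 4, and 0.0743 (log2 change of 4.27), 0.0930 and 0.0900 without PFSUV-IMQ tumors 2, 3 and 4.

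Saa4, the constitutive family member, behaved unlike its neighbours. Its level was 59.9, 43.9, 121 and 8.96 CPM in the saline tumors and 35.4, 423, 84.5 and 76.2 CPM in the PFSUV-IMQ tumors. The groups overlapped over most of their range, with PFSUV-IMQ tumor 2 alone above all saline tumors. The log2 change of 1.40 ± 0.86 had an adjusted p of 0.578 (quasi-likelihood test), and it was 0.14 without PFSUV-IMQ tumor 2.

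**Figure D1:**
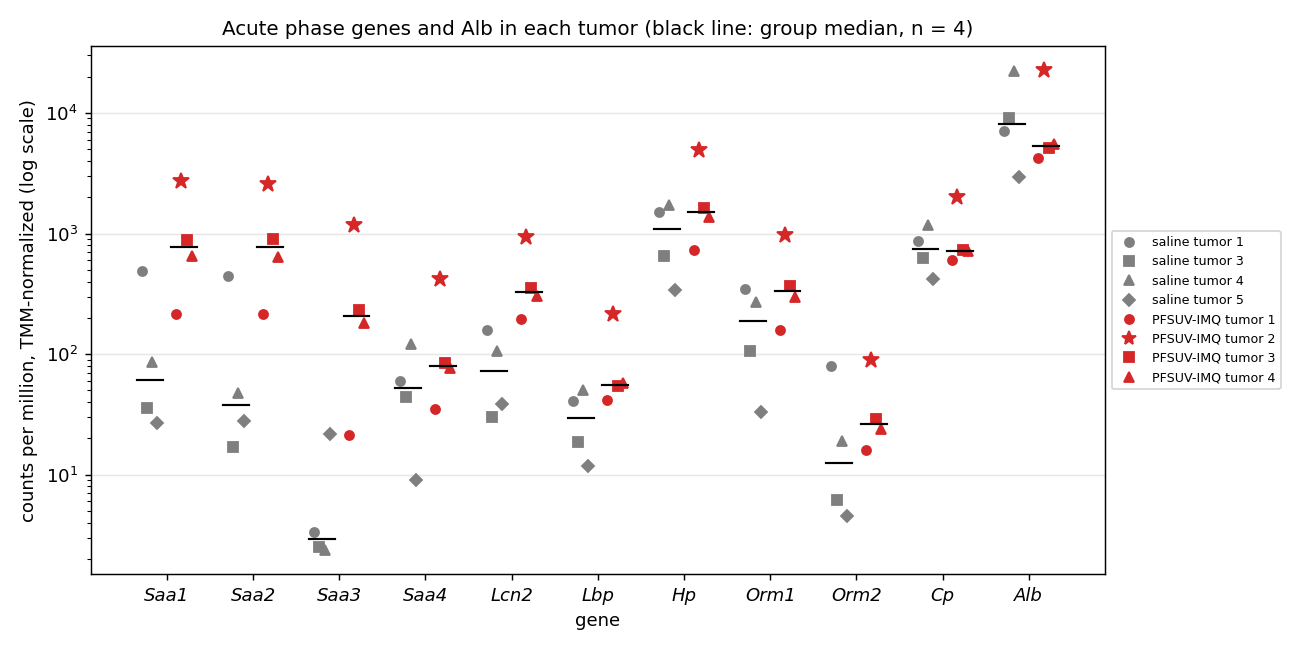
TMM-normalized CPM (vertical axis, log scale) of the 10 acute phase genes and Alb in each of 8 tumors, saline in gray and PFSUV-IMQ in red, with the group median as a black line. Levels are to be compared within a gene; Lcn2 is the only gene whose groups do not overlap, and PFSUV-IMQ tumor 2 is the highest point of its group for each of the 11 genes.

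Lcn2, a siderophore-binding protein that withholds iron from bacteria, separated the groups. Its level was 158, 29.9, 106 and 38.7 CPM in saline tumors 1, 3, 4 and 5, and 197, 942, 352 and 306 CPM in PFSUV-IMQ tumors 1 to 4. Every PFSUV-IMQ tumor exceeded every saline tumor, which held for 6.00% of all genes tested (3.28% were lower in every PFSUV-IMQ tumor) and for no other of the 10. An exact two-sided permutation test of the mean log2 level gave p = 0.0286, the smallest that 4 against 4 tumors allow. The fitted change was 5.41-fold (log2 2.44 ± 0.64, adjusted p of 0.0983 in the quasi-likelihood test), and DESeq2's Wald test gave an adjusted p of 0.00106 and edgeR's exact test 0.00544. Without PFSUV-IMQ tumor 2 the change was 3.39-fold (log2 1.76, adjusted p of 0.169 in the quasi-likelihood test).

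Neutrophils also hold Lcn2 protein in their granules. Of the 8 neutrophil markers tested, 7 had a log2 change above 0, beside 7361 of 15998 genes. By the quasi-likelihood test, edgeR's exact test or DESeq2's Wald test 0 were called. At an unadjusted p under 0.05 in the quasi-likelihood test 2 were higher, beside 8.34% of all genes. The summed level of all 10 markers listed, with the untested Ly6g and Camp, was 18.9 to 79.8 CPM in saline tumors and 37.4 to 164 CPM in PFSUV-IMQ tumors. The highest fold among those tested was that of Retnlg (log2 2.48 ± 0.95, adjusted p of 0.291 in the quasi-likelihood test). Ly6g, a defining marker left untested at 0 to 18 counts, was at 0 in saline tumors 1 and 4. Ltf and the untested Camp, both granule genes, were highest in saline tumor 5 (5.59 and 3.10 CPM, against 1.16 to 3.26 and 0.221 to 1.27 CPM in PFSUV-IMQ tumors). Saline tumor 5, which had the most Saa3 of its group, also had the most S100a9 of its group (23.9 CPM). The part of neutrophils in the Lcn2 and Saa3 values was not tested.

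Macrophage markers were looked at as well, since macrophages can make Saa3. Their summed level was 1756 to 2574 CPM in saline tumors and 1162 to 2364 CPM in PFSUV-IMQ tumors. Of the 10, 9 had a log2 change below 0, beside 8637 of 15998 genes. Vsig4, a complement receptor of resident liver macrophages, was called lower (log2 change of -1.62 ± 0.35, adjusted p of 0.0453 in the quasi-likelihood test), beside 0.200% of all genes. The others ran from -0.96 for Clec4f to 0.14 for Timd4, with C1qa at -0.01 and C1qb at -0.05. The part of macrophages in the Saa3 values was not tested.

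Lbp hands bacterial lipopolysaccharide to CD14 and TLR4. Its level was 40.9, 18.7, 50.3 and 11.7 CPM in the saline tumors and 41.9, 214, 54.1 and 57.1 CPM in the PFSUV-IMQ tumors. The lowest PFSUV-IMQ tumor lay between the 2 highest saline tumors, so the groups overlapped narrowly. The log2 change was 1.59 ± 0.61 with an unadjusted p of 0.0276 and an adjusted p of 0.295 (quasi-likelihood test), and without PFSUV-IMQ tumor 2 it was 0.73.

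Hp binds free haemoglobin. It was the most abundant of the 10 per kilobase of exon in both groups, at 211 to 1084 CPM per kb in saline tumors and 456 to 3083 CPM per kb in PFSUV-IMQ tumors. The level was 1521, 654, 1740.4 and 339 CPM in the saline tumors and 733, 4951, 1643 and 1360.3 CPM in the PFSUV-IMQ tumors, so that only PFSUV-IMQ tumor 2 left the range of the saline tumors. The log2 change was 1.03 ± 0.66, with an adjusted p of 0.599 in the quasi-likelihood test, and it was 0.21 without PFSUV-IMQ tumor 2.

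The orosomucoids are plasma carriers of lipophilic molecules. Orm1 was at 345, 106, 269.9 and 32.9 CPM in the saline tumors and 159.8, 981, 365 and 297 CPM in the PFSUV-IMQ tumors, with a log2 change of 1.258 ± 0.72 (adjusted p of 0.547, quasi-likelihood test). The groups overlapped, and PFSUV-IMQ tumors 2 and 3 alone lay above the saline tumors. Without PFSUV-IMQ tumor 2 the log2 change was 0.52. Orm2 was at 80.2, 6.11, 18.99 and 4.51 CPM against 16.2, 89.6, 28.9 and 24.0 CPM, and saline tumor 1 approached the highest PFSUV-IMQ tumor. Its log2 change of 0.53 ± 0.88 (adjusted p of 0.883, quasi-likelihood test) became 2.001 without saline tumor 1 and -0.28 without PFSUV-IMQ tumor 2. Orm1 shares 20.4% and Orm2 22.7% of 50-base words with other genes, mainly each other and Orm3, and the log2 change of the 3 genes summed was 1.19.

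Cp, the copper-carrying ferroxidase of plasma, changed least in size. Its level was 872, 624, 1179 and 423 CPM in the saline tumors and 607, 2009, 725 and 720.5 CPM in the PFSUV-IMQ tumors. Apart from PFSUV-IMQ tumor 2 the PFSUV-IMQ values fell inside the saline range. The log2 change was 0.39 ± 0.45, with an adjusted p of 0.806 in the quasi-likelihood test, and it was -0.20 without PFSUV-IMQ tumor 2.

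Over the 10 genes, 0 were called in either direction by the quasi-likelihood test, where 2.26% of all genes were called higher and 0.200% lower. At an unadjusted p under 0.05, 5 of the 10 were higher (Saa1, Saa2, Saa3, Lcn2 and Lbp), beside 8.34% of all genes, and 0 were lower, beside 4.65%. The log2 change was above 0 in 10 of 10, beside 7361 of 15998 genes tested, and the median was 1.498 beside -0.03. DESeq2's Wald test and edgeR's exact test each called 2 of the 10, Saa3 and Lcn2, beside 3.58% and 3.38% of all genes called higher, and the quasi-likelihood test without a filter on low counts called the same 2, beside 1.41%. PFSUV-IMQ tumor 2 weighed on these counts. Without it 8 of 10 changes were above 0 (all but Orm2 and Cp), 2 were at an unadjusted p under 0.05 and the median was 0.62, and each of the 10 genes had its lowest change of the 8 fits that left out 1 tumor. Without saline tumor 3, 4 or 5 the count at an unadjusted p under 0.05 was 3 each.

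Per kilobase of exon, the order of mean levels from high to low was Hp, Orm1, Cp, Saa1, Saa2, Orm2, Lcn2, Saa4, Lbp and Saa3 in saline tumors. In PFSUV-IMQ tumors it was Hp, Orm1, Saa1, Saa2, Lcn2, Saa3, Cp, Saa4, Orm2 and Lbp. By group mean Saa3 thus left the last place, at 2.87 ± 3.65 CPM per kb (SD, n = 4) in saline tumors and 155 ± 202 in PFSUV-IMQ tumors. Cp stood at 81.0 ± 34.1 and 106 ± 69.5. Within tumors this step did not always hold. Saa3 was still below Lbp in PFSUV-IMQ tumor 1 (8.17 against 8.67 CPM per kb) and already above it in saline tumor 5 (8.33 against 2.43). Ranges of neighbours in either order overlapped. Levels are paired within a tumor, however, and some steps held in each one. Hp exceeded Orm1, and both Saa4 and Orm2 exceeded Lbp, in every tumor of both groups.

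Alb, the albumin gene of hepatocytes, was set beside each gene to see how far the acute phase levels followed the hepatocyte RNA of the same tumor. Its level was 7075, 9027, 22446 and 2938 CPM in saline tumors 1, 3, 4 and 5, and 4259, 22736, 5131 and 5479 CPM in PFSUV-IMQ tumors 1 to 4. The groups covered nearly the same range only through PFSUV-IMQ tumor 2. The other PFSUV-IMQ tumors lay below saline tumors 1, 3 and 4 and above saline tumor 5. The log2 change of -0.14 ± 0.71 had an adjusted p of 0.964 in the quasi-likelihood test. In that test it was -0.51 ± 0.21 with the hepatocyte marker mean as a covariate (adjusted p of 0.175). With replicate number as a block it was -1.19 ± 0.36 (adjusted p of 0.114). With neither term, it was -1.08 without PFSUV-IMQ tumor 2 (adjusted p of 0.465, same test) and 0.56 without saline tumor 4. Alb is itself listed below as a negative acute phase gene, as are the hepatocyte markers Apoa1, Ttr and Ahsg. A fall of Alb with treatment would raise every ratio to it, and this was not tested. Saline tumor 4 and PFSUV-IMQ tumor 2 had nearly the same Alb level, which makes them a like pair by this measure. Between them Saa3 differed most, at 2.36 against 1182 CPM, followed by Saa2 at 48.0 against 2593 CPM and Saa1 at 86.6 against 2723 CPM, while Cp differed little, at 1179 against 2009 CPM. That pair was chosen after its values were seen.

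**Figure D2:**
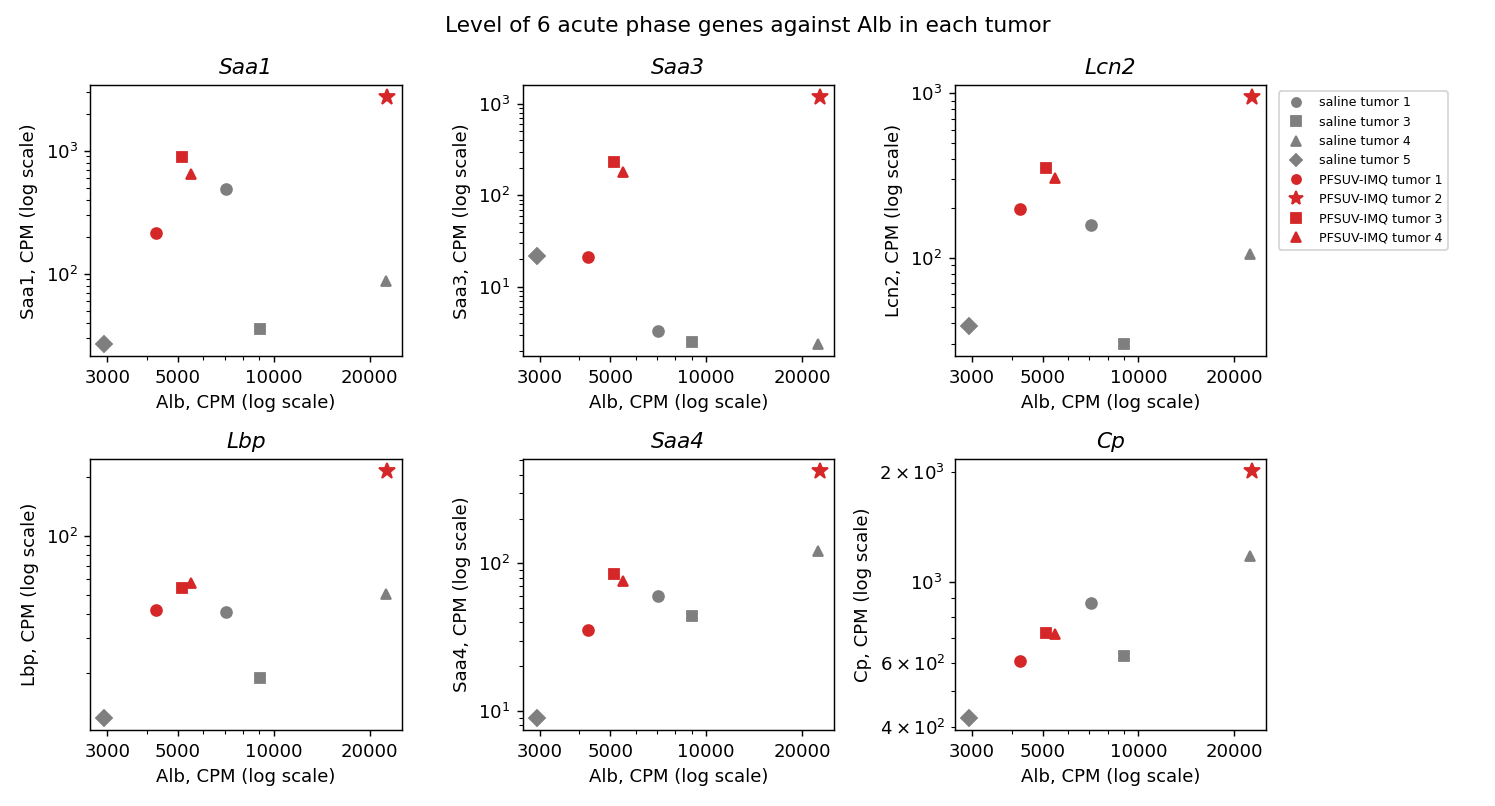
CPM of Saa1, Saa3, Lcn2, Lbp, Saa4 and Cp (vertical axes) against CPM of Alb (horizontal axes), both on log scales, 1 point per tumor, saline in gray and PFSUV-IMQ in red. Cp and Saa4 climb with Alb over both groups, whereas Saa3 at the highest Alb levels takes both its lowest value, 2.36 CPM in saline tumor 4, and its highest, 1182 CPM in PFSUV-IMQ tumor 2.

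Across the 8 tumors, log2 CPM of Cp followed Alb most closely, with Pearson's r = 0.90 (exact permutation p = 0.00221, adjusted over all genes 0.0318) and Spearman's rho = 0.83 (exact permutation p = 0.0154). Saa4 had r = 0.83 (exact permutation p = 0.00742, adjusted 0.0613; rho = 0.76, p = 0.0368) and Hp r = 0.75 (exact permutation p = 0.0308, adjusted 0.133; rho = 0.69, p = 0.0694). These 3 of 10 genes had an r above 0 at p under 0.05, beside 15.2% of all genes. For Orm1, Lbp and Orm2 r was 0.65, 0.64 and 0.47, and for Lcn2, Saa1, Saa2 and Saa3 it was 0.32, 0.29, 0.17 and 0.01. Spearman's rho of these 7 ran from -0.14 for Saa3 to 0.52 for Orm2, with exact permutation p values from 0.0815 to 0.970 for r and from 0.197 to 0.752 for rho. Without saline tumor 4 and PFSUV-IMQ tumor 2, the pair farthest from the median of Alb, r fell to 0.69 for Cp (exact permutation p = 0.125), 0.67 for Saa4 (p = 0.157) and 0.49 for Hp (p = 0.333), so none of the 3 passed at 0.05 over the remaining 6 tumors, whose Alb range is narrower. With the mean of the hepatocyte markers in place of Alb, 5 of 10 had an r above 0 at p under 0.05, beside 13.8% of all genes. The points of each correlation share their library and its depth. Both groups were pooled without a term for treatment. A gene that differed between groups can therefore have a low r though it followed Alb within each, and the order of r does not separate the 2.

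Set against Alb in each tumor, the genes drew apart. Lbp stood at 5.78, 2.07, 2.24 and 3.99 counts per 1000 Alb counts in saline tumors 1, 3, 4 and 5, and at 9.83, 9.41, 10.5 and 10.4 in PFSUV-IMQ tumors 1 to 4. The PFSUV-IMQ tumors gave nearly 1 value (10.1 ± 0.526, SD, n = 4), including tumor 2, and all exceeded the saline tumors (3.52 ± 1.74). For Lcn2 the ratio was 22.3, 3.31, 4.72 and 13.2 in the saline tumors and 46.3, 41.4, 68.5 and 55.9 in the PFSUV-IMQ tumors, again without overlap.

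In log2 units the ratio to Alb was higher in PFSUV-IMQ tumors by 2.66 for Lcn2 and 1.64 for Lbp (exact permutation p = 0.0286 each, the smallest possible, and 1 after adjustment over all genes). Those 2 of 10 genes did not overlap between groups, beside 2.04% of all genes in this direction and 0.606% in the other. The mean difference was 5.43 for Saa3, 3.89 for Saa2, 3.41 for Saa1, 1.42 for Saa4 and 1.10 for Hp, with an exact permutation p of 0.0571 each, and the groups of each overlapped. For Orm1, Orm2 and Cp it was 1.58, 1.29 and 0.46, with exact permutation p values of 0.0857, 0.229 and 0.257.

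Single tumors decided several of these overlaps. Saline tumor 1 had 68.5 counts of Saa1, 63.3 of Saa2, 48.7 of Orm1 and 11.3 of Orm2 per 1000 Alb counts, where the other saline tumors had at most 9.09, 9.501, 12.02 and 1.53. Without it 8 of 10 genes, all but Saa3 and Cp, had higher ratios in every PFSUV-IMQ tumor, beside 2.27% of all genes. For Saa3, saline tumor 5 had 7.39 and the other saline tumors at most 0.469 counts per 1000 Alb counts, while PFSUV-IMQ tumor 1 had 5.001 and the others 33.0 to 52.0. Without PFSUV-IMQ tumor 1, 7 of 10 did not overlap (all but Orm1, Orm2 and Cp), beside 2.63%. Leaving out saline tumor 3 or 4, or PFSUV-IMQ tumor 2, 3 or 4, left only Lbp and Lcn2 without overlap. Leaving out saline tumor 5 added Saa3 to them. Saline tumor 1 and PFSUV-IMQ tumor 1 were singled out after their values were seen. The genes vary together and share the Alb value of each tumor, so these counts are not of separate results. PFSUV-IMQ tumor 2, the highest tumor by level, was inside the range of the other PFSUV-IMQ tumors in its ratio to Alb for Saa1, Saa2, Hp, Orm1 and Orm2.

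**Figure D3:**
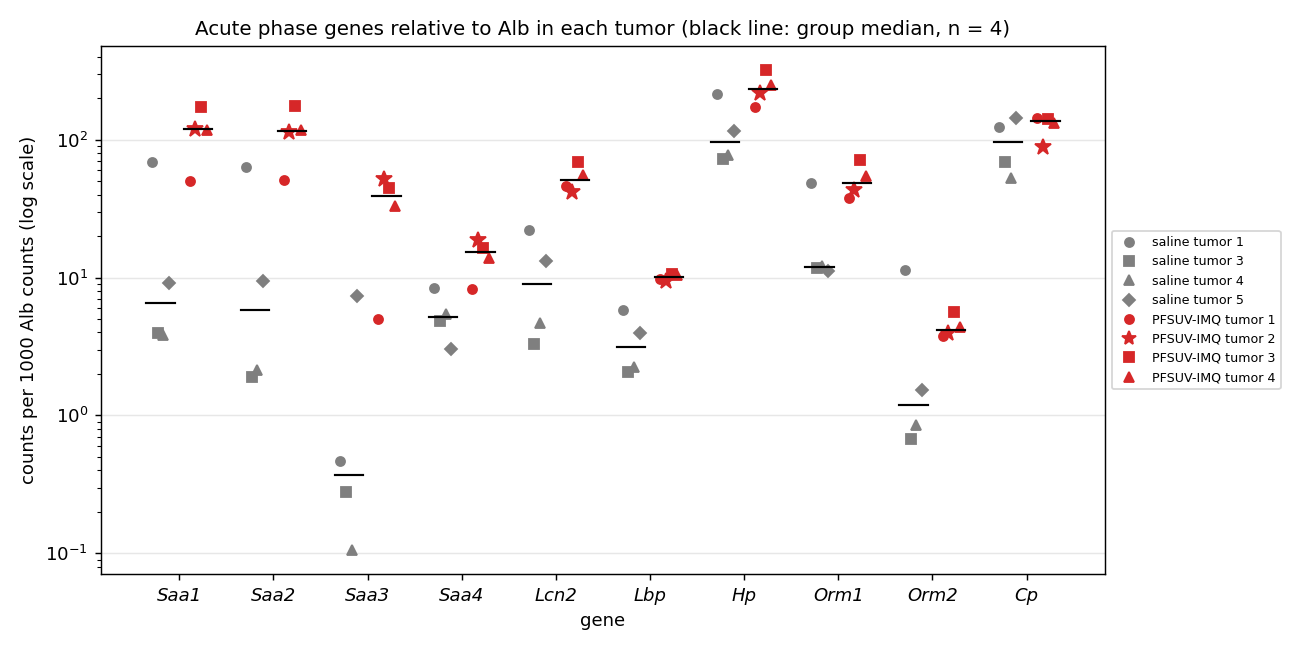
Counts of each acute phase gene per 1000 Alb counts (vertical axis, log scale) in each tumor, saline in gray and PFSUV-IMQ in red, with the group median as a black line. Lbp and Lcn2 are the genes whose groups do not overlap, Lbp at 9.41 to 10.5 in the PFSUV-IMQ tumors, and saline tumor 1 stands apart from its group for Saa1, Saa2, Orm1 and Orm2.

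The overlap depended on the reference. With Apoa1 as the reference, Lcn2 alone did not overlap (2.04% of all genes), and with the mean of the 12 hepatocyte markers 0 of 10 did (0.838% of all genes). On that mean the Cp difference was -0.14, and on Alb it was 0.46. The marker mean was itself higher relative to Alb in PFSUV-IMQ tumors, by 0.61 on the log2 scale. Of its 12 genes, which include Alb, the gluconeogenic and amino acid enzymes G6pc (log2 change of 2.09 ± 0.55, adjusted p of 0.0441) and Tat (2.33 ± 0.38, adjusted p of 0.00359) were called higher by the quasi-likelihood test with log2 Alb as a covariate. The 11 markers besides Alb had a median log2 change of 0.38 in that fit, and only Ahsg (-0.18) and Cyp2e1 (-0.05) were below 0. The cause of the shift between the marker mean and Alb was not tested.

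A fit across all genes with log2 Alb of each tumor as a covariate gave similar sizes with smaller errors for the genes that follow Alb. It called 4 of the 10 higher, beside 3.99% of all genes: Lbp (log2 change of 1.53 ± 0.27, adjusted p of 0.00549), Lcn2 (2.33 ± 0.46, 0.0100), Saa4 (1.42 ± 0.28, 0.0104) and Saa3 (5.404 ± 1.37, 0.0379), all by edgeR's quasi-likelihood test. The standard error of Saa4 had been 0.86 without the covariate. For Saa3 the standard error had been 1.31, and its unadjusted p rose from 0.00151 to 0.00237 with the covariate (quasi-likelihood test). Its adjusted p fell from 0.0544 only because more genes over the whole table had a low p in that fit. The Saa3 call is thus not stronger evidence for Saa3 itself. Hp, Orm1, Saa1 and Saa2 had adjusted p values of 0.106, 0.145, 0.132 and 0.155 in that fit, and Cp and Orm2 0.257 and 0.854. With the mean of the hepatocyte markers as the covariate instead, Lcn2 alone was called (2.01 ± 0.55, adjusted p of 0.0496), beside 3.33%, and Saa4 had a log2 change of 0.65 ± 0.38.

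**Figure D4:**
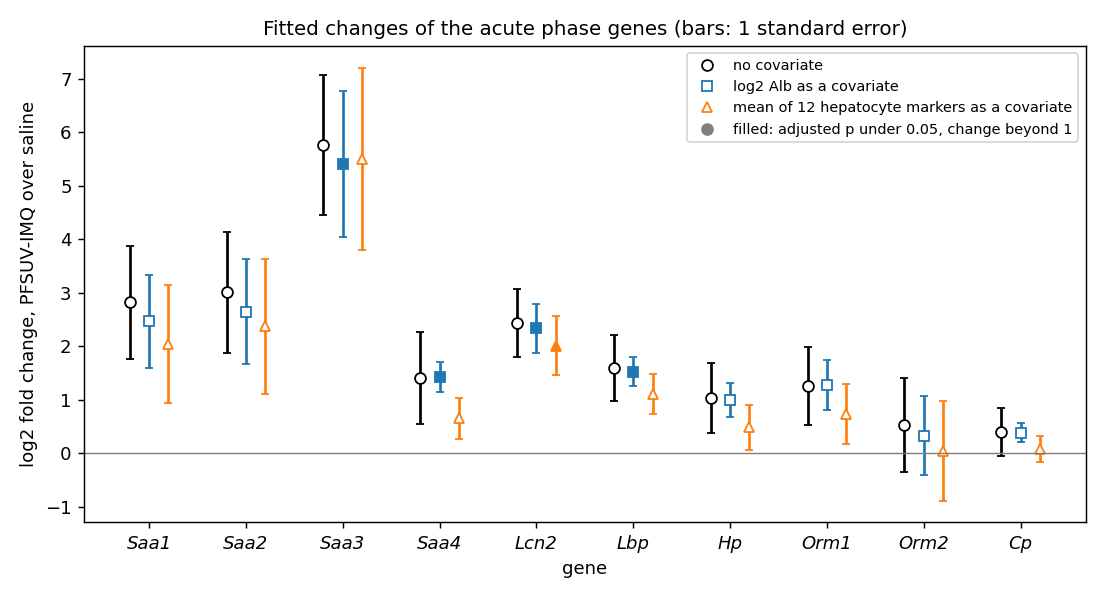
Log2 fold change of PFSUV-IMQ over saline (vertical axis, bars 1 standard error, 4 tumors per group) for each acute phase gene in fits without a covariate, with log2 Alb and with the mean of 12 hepatocyte markers as a covariate. Filled points passed the threshold: none without a covariate, Saa3, Saa4, Lcn2 and Lbp with Alb, and Lcn2 with the marker mean.

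The genes whose log2 CPM profile over the 8 tumors was most like each member's, by Pearson's r, were partly other members. For Saa1 they were Saa2 (0.99), Lcn2 (0.97) and Orm3 (0.97), and for Saa2 the third, after Saa1 and Lcn2, was Mark3 (0.95). Lcn2 was nearest to Slfn3 (0.99) and Lrrc4 (0.98), then Saa1. Saa3 was nearest to Syvn1 (0.99), Gm13270 (0.98) and Gm45774 (0.98), and none of the other members was among them.

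Saa4 and Hp had plasma protein genes beside them. Saa4 was nearest to Crp, Serpina10 and Itih4 (0.99 each), and Hp to Hpx (0.99), Itih3 (0.98) and Serpina10 (0.97). Orm1 was nearest to Gm7967 (0.99), Acnat2 and Fgl1 (0.98 each), and Orm2 to Gm7967 (0.92), Orm1 and Fgl1 (0.91 each). Lbp was nearest to Scara5 (0.99), Gm7694 and Tchh (0.98 each), and Cp to B3galt1, St6gal1 (0.98 each) and Plcxd2 (0.97).

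Of 22 other genes known to rise in an acute phase response, 3 were called higher and 0 lower by the quasi-likelihood test. Over all genes 2.26% were called higher and 0.200% lower. The log2 change was above 0 in 22 of 22 (median 0.85), beside 7361 of 15998 genes (median -0.03). PFSUV-IMQ tumor 2 weighed on this count as well, and for Apcs and Serpina1a it alone lay above the saline tumors. The metallothioneins Mt1 and Mt2, which bind zinc and copper, rose by log2 2.01 ± 0.40 (adjusted p of 0.0299) and 2.25 ± 0.38 (adjusted p of 0.0147). Mt1 was at 99.4 to 270.2 CPM in saline tumors and 469 to 1288 CPM in PFSUV-IMQ tumors. Il1rn, the interleukin 1 receptor antagonist, rose by 1.66 ± 0.33 (adjusted p of 0.0309), with 42.8 to 66.3 CPM in saline tumors and 115 to 303.9 CPM in PFSUV-IMQ tumors. Steap4, a metalloreductase, had the largest estimate of the list (3.38 ± 0.80, adjusted p of 0.0631 in the quasi-likelihood test), and Crp, the C-reactive protein gene, had 2.01 ± 0.95 with an adjusted p of 0.428. Both edgeR's exact test and DESeq2's Wald test called 5 of the 22, adding Steap4 and Serpina3n, beside 3.38% and 3.58% of all genes called higher.

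Fibrinogen genes, which follow interleukin 6, had smaller estimates, with log2 changes of 0.77 for Fga, 0.45 for Fgb and 0.83 for Fgg, and adjusted p values of 0.746, 0.863 and 0.724 in the quasi-likelihood test. With the Alb covariate 8 of the 22 were called, beside 3.99% of all genes called higher: Crp, Serpina3n, Serpina3m, Lrg1 and Steap4 joined Mt1, Mt2 and Il1rn.

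The 10 negative acute phase genes, whose products fall in inflammation and which include Alb, had 6 log2 changes above 0 and 4 below (median 0.11). Of them 0 were called by the quasi-likelihood test, edgeR's exact test or DESeq2's Wald test. Ahsg (fetuin A) had the most negative at -0.36 ± 0.53 (adjusted p of 0.855, quasi-likelihood test), and Ttr (transthyretin) and Trf (transferrin) had 0.19 and 0.21. At an unadjusted p under 0.05 the count was also 0 of 10.

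Among 13 inducing cytokines and receptors 2 were called higher, beside 2.26% of all genes. Il6, the main inducer of the response in hepatocytes, was at 0.323, 0.808, 0.430 and 0.706 CPM in saline tumors 1, 3, 4 and 5 and at 1.54, 7.13, 2.06 and 3.36 CPM in PFSUV-IMQ tumors 1 to 4, without overlap (log2 change of 2.61 ± 0.54, adjusted p of 0.0374, quasi-likelihood test). These are 7 to 23 and 28 to 102 counts. Osmr, the oncostatin M receptor, was at 24.7 to 35.0 CPM against 56.1 to 136 CPM (1.44 ± 0.28, adjusted p of 0.0286). Il1b had a log2 change of -0.66 ± 0.32 and Tnf 1.13 ± 0.55, and neither passed (adjusted p of 0.446 and 0.449). Lif was called as well by edgeR's exact test, and Lif and Il1r1 by DESeq2's Wald test.

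Of 14 signalling and transcription factor genes 0 were called by the quasi-likelihood test. In that test 6 of them were higher at an unadjusted p under 0.05, beside 8.34% of all genes. The count was 1 by edgeR's exact test (Cebpb) and 2 by DESeq2's Wald test (Cebpb and Nfkbia). Cebpb, the C/EBP factor that rises in inflamed liver, had a log2 change of 1.29 ± 0.29 with an adjusted p of 0.0549, and Stat3 0.84 ± 0.19 with 0.0578. Cebpa, which holds the resting hepatocyte program, had -0.57 ± 0.47 (adjusted p of 0.721).

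Of 11 tested receptors and partners of the 10 proteins, Fpr2, a receptor for serum amyloid A, was called higher, beside 2.26% of all genes. It was at 5.81 to 9.97 CPM in saline tumors against 16.3 to 51.1 CPM (log2 change of 1.81 ± 0.39, adjusted p of 0.0435, quasi-likelihood test). Tlr2, also a receptor for serum amyloid A, had 1.84 ± 0.45 with an adjusted p of 0.0736. Slc40a1 (ferroportin), the iron exporter with which ceruloplasmin works, had -1.70 ± 0.42 with 0.0751, and Cd163, the receptor for haptoglobin bound to haemoglobin, had -1.02 ± 0.33 with 0.183. Both edgeR's exact test and DESeq2's Wald test called Fpr2 and Tlr2 higher and Slc40a1 lower, as did the quasi-likelihood test with the Alb covariate. The 7 calls among these lists did not all hold when 1 tumor was left out. Of 8 such fits, Mt2 kept its call in 6, and Mt1, Il1rn, Osmr and Fpr2 in 3 each. Il6 kept it in 1 (without PFSUV-IMQ tumor 1) and Vsig4 in 1 (without PFSUV-IMQ tumor 2). Leaving out saline tumor 1 or 3 ended all 7, and the highest adjusted p of any of these fits was 0.137 (Fpr2 without saline tumor 1). Without saline tumor 1 or 3, fewer genes were called higher over the whole table, 197 and 212 against 362 with all tumors. A fit with 3 tumors in a group has less power, so a lost call alone does not show dependence on the tumor left out. All 7 changes kept their direction in each of the 8 fits.

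**Figure D5:**
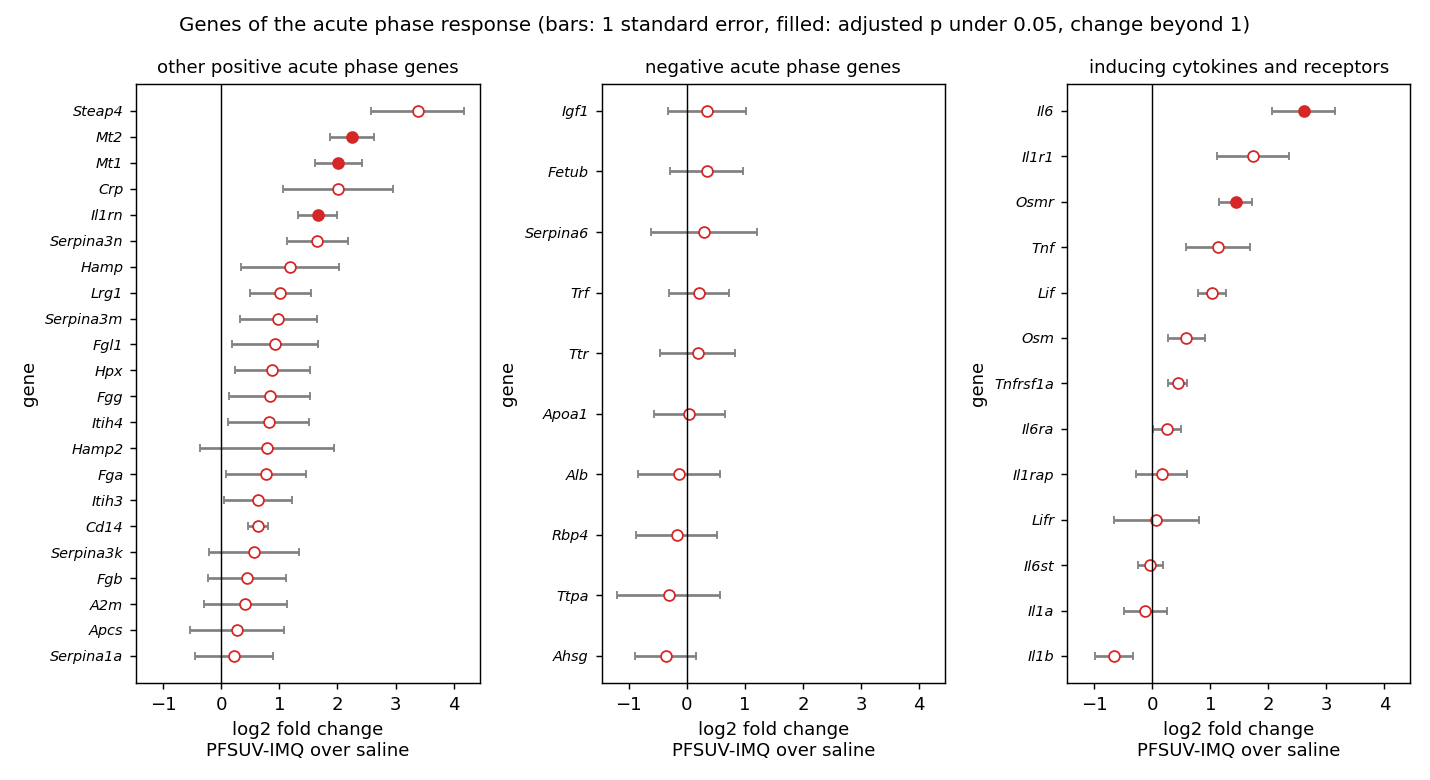
Log2 fold change of PFSUV-IMQ over saline (horizontal axes, bars 1 standard error, 4 tumors per group) for 22 other positive acute phase genes, 10 negative acute phase genes and 13 inducing cytokines and receptors, each sorted by size. All 22 of the first panel lie above 0, with Mt1, Mt2 and Il1rn filled as called, the second panel is centred near 0, and Il6 and Osmr are filled in the third.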

How the data were processed

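The authors deposited raw counts of reads per gene for the 8 tumors, the input of every fit. A second deposited table of signal values, the authors' counts divided by 1 DESeq2 size factor per tumor, supplied gene symbols only. The submitters' notes name Trimmomatic 0.38, HISAT2 2.1.0 and featureCounts 2.0.0, the study's methods TopHat and HTSeq. The genome build, the strand setting of the counting and any batch are not given in the sources used here. Identifiers were matched to GENCODE M21 (55450 of 55536).

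Fits used edgeR 4.0.16 in R 4.3.3 (TMM, filterByExpr, quasi-likelihood test, Benjamini-Hochberg over 15998 genes). Log2 CPM had a prior count of 2. Levels, ratios to Alb and correlations were tested by exact two-sided permutation over 70 groupings or 40320 pairings in Python 3.11.15, with adjustment over all genes rather than over the members as first planned. The alternatives were other scalings, filters and tests (DESeq2 1.42.0), a replicate block, covariates, summed paralogs, other references and each tumor left out. The fits were tested on simulated data. Tumors are taken as separate animals, and p-values measure the spread between them. Chi-square per degree of freedom between libraries of a group was 26.0 to 258.

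The members and lists were chosen with earlier results of these data known. Named were the members, Alb, every list gene called, the 3 genes of a list with the largest changes and the 3 nearest each member by r. Others were chosen after their values were seen, such as the fibrinogens, Ttr, Trf, Stat3, S100a9, Ly6g, Ltf, Camp, C1qa, C1qb, Timd4, G6pc, Tat, Afp, Igf2, Epcam and Krt19.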

Additional observations from a re-analysis of the deposited data

Results flagged for a closer look

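In groups of 4 tumors, a tumor was picked out where its gap to the nearest other exceeded Dixon's 95% critical value. Of 114 groups looked at, 26 met this, and 15 of the 26 were PFSUV-IMQ tumor 2, as the highest of its group in 14 and the lowest in 1. The critical value holds for normal values in separate groups. These were CPM and ratios, not logarithms, of genes that vary together in the same tumors, so the count gives no excess over chance. The causes were not tested.

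Saline tumor 1 was high among saline tumors for Saa1 (485 CPM), Saa2 (448 CPM) and the paralog Orm3 (2.26 CPM). Per 1000 Alb counts it was high for Saa1 (68.5), Saa2 (63.3), Orm1 (48.7) and Orm2 (11.3). Saline tumor 5 was high for Saa3, at 21.7 CPM and at 7.39 per 1000 Alb counts, and saline tumor 4 for the endothelial marker Stab2 (38.1 CPM).

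PFSUV-IMQ tumor 2 was high among PFSUV-IMQ tumors for Saa4 (423 CPM), Lbp (214 CPM), Cp (2009 CPM) and Alb (22736 CPM). It was also high for Fpr2 (51.1 CPM), Il1rn (303.9 CPM), Steap4 (1586 CPM), Ahsg (2533 CPM), Cebpb (221 CPM), Cebpd (67.5 CPM) and Tlr2 (207 CPM). For neutrophil markers the same tumor was high in Retnlg (10.97 CPM), Mmp8 (13.6 CPM) and S100a9 (54.3 CPM). It was the lowest for Afp (2.096 CPM). PFSUV-IMQ tumor 1 was high for the collagen gene Col1a1 (3913 CPM).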

How the results depend on the processing

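By the quasi-likelihood test without covariates 362 genes were called higher and 32 lower, with 0 of the 10 acute phase genes, 3 other acute phase genes and 3 genes of the inducer, signalling and receptor lists. Without a filter on low counts 491 of 34703 genes were higher and 63 lower, and 2 members and 7 inducer-list genes were called. edgeR's exact test gave 92 lower, 2 members, 5 other acute phase genes and 7 inducer-list genes, and DESeq2's Wald test gave 572 higher, 114 lower, 2, 5 and 9. With log2 Alb as a covariate there were 638 higher, 139 lower, 4, 8 and 7, and with the hepatocyte marker mean 266 lower, 1 member and 8 inducer-list genes. The members whose groups did not overlap in their ratio to Alb went from 2 to 1 with Apoa1 and to 0 with the marker mean as the reference, where Cp reversed (-0.14). Members with a relation at an unadjusted p under 0.05 went from 3 with Alb (15.2% of all genes) to 5 with the marker mean (13.8%).

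Replicate numbers did not pair the tumors: deviations of tumors 1, 3 and 4 correlated at 0.29, -0.27 and -0.32, and saline tumor 5 and PFSUV-IMQ tumor 2 have no partner. A replicate block gave 416 higher (2.60%), 267 lower, 1 member (Saa3, log2 change of 5.26), 5 other acute phase genes and 9 inducer-list genes, and reversed Saa4 (-0.17), Hp (-0.045) and Cp (-0.34).

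With 1 tumor left out, 197 to 375 genes were higher and 8 to 38 lower, with 0 to 1 members, 0 to 4 other acute phase genes and 0 to 4 inducer-list genes called, and 2 to 8 members not overlapping in their ratio to Alb. The log2 change ran from -0.28 (without PFSUV-IMQ tumor 2) to 2.001 (without saline tumor 1) for Orm2, from -0.20 to 0.66 for Cp and from -1.08 to 0.56 for Alb, which was also above 0 without PFSUV-IMQ tumors 1, 3 or 4 (0.10, 0.09 and 0.08). The causes were not tested. Other changes of single genes kept their direction. With 4 tumors per group no exact test over groupings could give a p under 0.0286, and libraries of a group differed far beyond counting error.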
